A study of Homo sapiens with 6 samples.

Results

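The 9 cyclic AMP phosphodiesterase genes described here are PDE3A, PDE3B, PDE4A, PDE4B, PDE4C, PDE4D, PDE7A, PDE8A and PDE10A, taken by symbol from tables that list 56638 genes for each library. These were measured by RNA sequencing in HCT116 cells, an established line from a human colorectal cancer, with 3 libraries of the genotype labelled control and 3 labelled ZFP90 KO. Guide RNAs for the knockout were directed at exon 3 of ZFP90, a gene for a KRAB zinc-finger protein. All cells were at passages 16 to 19 and were grown without any further agent named in the labels. Nothing in the labels says whether a group's replicates were separate cultures or clones, or what the controls received, so tests here reflect the spread among libraries, part or all of which may be technical. The 9 genes were chosen on function together with the knockout against control fold changes of these libraries, which were already known. Their differences are therefore given as a description, with standard errors and no test.

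Cyclic AMP is made by adenylyl cyclases, which G protein-coupled receptors switch on or off, and it acts through protein kinase A, the EPAC exchange factors and POPDC membrane proteins. Phosphodiesterases end the signal by hydrolysing cAMP, and each family has its own control: PDE3 enzymes are inhibited by cGMP, PDE4, PDE7 and PDE8 enzymes are specific for cAMP, and PDE10A hydrolyses both nucleotides. PDE4 enzymes are also held near particular receptors and kinases by scaffold proteins, so that they limit cAMP locally. In intestinal epithelium cAMP is best known for driving chloride and fluid secretion.

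Each library held 13424356 to 17012910 reads in genes. Levels are given as CPM, read counts scaled to a common library size, after TMM scaling, an adjustment for composition. The targeted gene ZFP90 had 47.5, 47.4 and 43.1 CPM in control replicates 1 to 3 and 86.9, 80.5 and 89.8 CPM in the knockout-labelled libraries. Its RNA was thus higher, not lower, under the knockout label (log2 fold change 0.90, SE 0.066, edgeR adjusted p = 5.1e-05). Counts over a whole gene do not show whether its reading frame was cut, so this neither checks nor contradicts the label, and directions below are for the libraries as labelled. Of 8 colorectal epithelial markers 7 passed the count filter and 1, KRT18, fell by 0.23 on the log2 scale (edgeR adjusted p = 0.0394), a call lost with DESeq2 and without control replicate 3 or knockout-labelled replicate 2 or 3. Their summed level was 2855 to 2975 CPM in controls and 2793 to 2929 CPM under the knockout label, with EPCAM at 350 ± 11.8 CPM in controls and 348 ± 4.64 CPM in the knockout-labelled libraries (SD, n = 3 each), whereas VIL1, a microvillus protein, had at most 2 reads in any library. Of 8 leukocyte markers 0 passed the count filter, with PTPRC at 0 or 1 read, and their summed level was 1.85 to 2.30 CPM in controls and 1.57 to 1.91 CPM under the knockout label. Of 8 markers of fibroblasts and endothelium 4 passed, summed at 74.8 to 96.0 and 75.0 to 96.9 CPM, most of it COL1A1, and PECAM1 was at 0. Control replicate 2 stood apart from the other controls on part of the genome, which touches PDE10A and PDE7A and is given beside them.

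Levels between genes were compared as CPM per kilobase of annotated exon (GENCODE release 29), since longer transcripts yield more reads. In the controls, 3 genes stood highest. PDE8A, a cAMP-specific enzyme of high affinity, was at 10.2 ± 0.262 CPM per kb, PDE4B at 9.64 ± 0.298 and PDE4A at 7.29 ± 0.180 (SD, n = 3). PDE7A followed at 3.40 ± 0.686 CPM per kb. A lower tier held PDE3B at 0.666 ± 0.0405, PDE4C at 0.415 ± 0.0762 and PDE4D at 0.415 ± 0.0207 CPM per kb. PDE10A was at 0.0255 ± 0.00531 CPM per kb, and PDE3A, with 1, 1 and 4 reads, was at 0.0169 ± 0.0161. The control ranges of PDE8A (9.90 to 10.4) and PDE4B (9.36 to 9.96) overlapped, as did those of PDE4C and PDE4D. Those of PDE10A (0.0196 to 0.0299) and PDE3A (0.00735 to 0.0356) overlapped as well. The order within each of these pairs is therefore not set by these libraries.

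**Figure D1:**
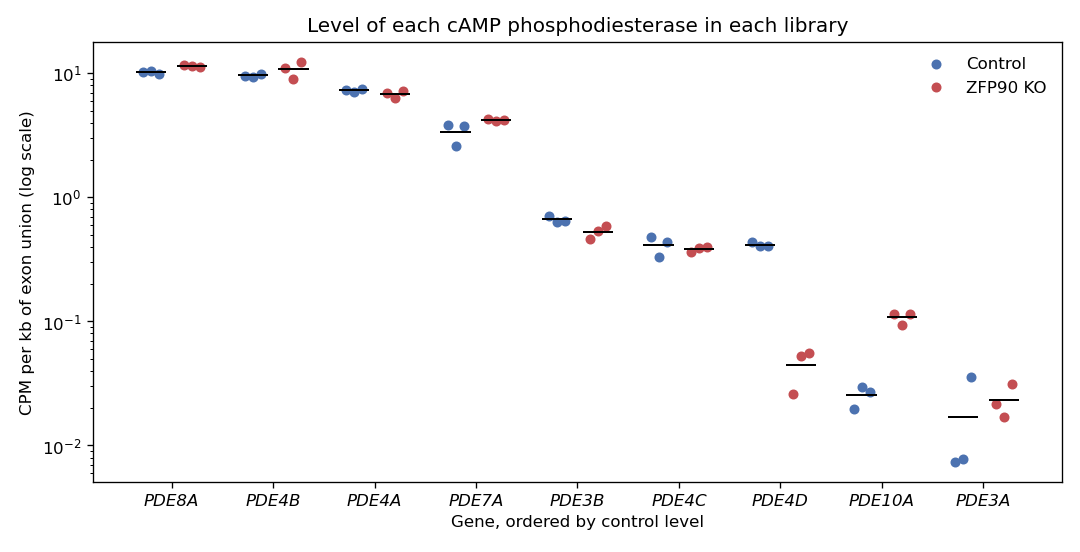
Level of each of the 9 genes in each library, in CPM per kilobase of exon on a log axis, with genes ordered by control level. Blue points are the 3 control libraries, red points the 3 knockout-labelled libraries, and black lines their means. PDE4D drops out of the tier it shares with PDE4C, from 0.415 to 0.0448 CPM per kb, and PDE10A stands above its control level at 0.108.

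The same genes stood highest in the knockout-labelled libraries. PDE8A was at 11.5 ± 0.147 CPM per kb, PDE4B at 10.8 ± 1.61, PDE4A at 6.85 ± 0.452 and PDE7A at 4.21 ± 0.103 (SD, n = 3). The ranges of PDE8A (11.4 to 11.6) and PDE4B (9.07 to 12.3) overlapped here too, so their order is again not set. Lower down, PDE4D and PDE10A changed places. PDE10A was at 0.108 ± 0.0128 CPM per kb and PDE4D at 0.0448 ± 0.0164, where its range of 0.0259 to 0.0562 overlapped the 0.0169 to 0.0312 of PDE3A. Summed over the 9 genes the level was 32.1 ± 1.03 CPM per kb in controls and 34.5 ± 2.09 under the knockout label. Over the 4 PDE4 genes it was 17.8 ± 0.531 and 18.1 ± 2.06. PDE4D made up 2.34% ± 0.128 of that PDE4 sum in controls and 0.251% ± 0.0976 in the knockout-labelled libraries (SD, n = 3 each). The member with the widest difference was therefore a minor part of PDE4 RNA in both groups.

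PDE4D encodes a cAMP-specific enzyme with many isoforms and lies on chromosome 5 from 58969038 to 60522120 on the minus strand (GRCh38, GENCODE release 29). It had 116, 100 and 88 reads in control replicates 1 to 3 and 7, 12 and 14 reads in the knockout-labelled libraries. These correspond to 7.16, 6.58 and 6.57 CPM against 0.423, 0.851 and 0.916 CPM. The groups lay far apart, and the highest knockout-labelled library was well below the lowest control. The log2 fold change was -3.22 (SE 0.23), the 10th lowest of 16369 genes tested. That rank is a description only, since these fold changes helped choose the gene. From the summed reads, 304 against 33, control was 9.45-fold above knockout, with an exact 95% counting interval from 6.58 to 14.0 that covers counting error only. Because the counts are from bulk RNA, fewer cells with PDE4D RNA and less PDE4D RNA per cell cannot be told apart. With knockout-labelled replicate 1 left out the log2 fold change was -2.93, and with each other library left out it lay between -3.43 and -3.18. PDE4D passed the count filter through the controls, since only 2 knockout-labelled libraries reached the filter's 0.665 CPM (before TMM scaling), so it was tested because of its control level.

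PDE4D RNA can start at many places, and RefSeq lists 8 of them among its promoter windows. Counts over the whole gene do not show which starts were in use. A pair of these windows is shown because they hold, of the 8, the only match to the CRE core and the highest CpG content. The bases just before each start are printed from the RefSeq table (GRCh38.p14), 5′ to 3′ on the gene's strand, with capitals marking motif matches found by search:
PDE4D start with a CRE core, chr5:59587626-59587775, minus strand: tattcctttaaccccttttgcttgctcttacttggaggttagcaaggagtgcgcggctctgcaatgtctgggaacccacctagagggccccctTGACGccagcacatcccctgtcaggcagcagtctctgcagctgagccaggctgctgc
PDE4D start with the most CpG, chr5:59039477-59039626, minus strand: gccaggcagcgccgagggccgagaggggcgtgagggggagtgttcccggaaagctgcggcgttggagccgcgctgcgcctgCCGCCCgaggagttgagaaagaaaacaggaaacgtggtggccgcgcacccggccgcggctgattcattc
The motifs searched, on both strands of 300-base windows that run 50 bases past the start, were the full cAMP response element (CRE, letters TGACGTCA) and its core (TGACG), which also lies inside the full element. The others were the TATA box (letters TATAAA), the CCAAT box and the GC box (letters GGGCGG). Capitals in the first sequence mark the core and in the second the GC box read on the opposite strand. Of 35116 RefSeq windows, 24.6% held the core, 1.85% the full element and 45.0% the GC box. A match is a description of letters, not evidence of binding.

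Genes around PDE4D were read for comparison, among the 83.9% of tested genes that could be placed by symbol. A nearer gene that was not placed would be missed. The nearest placed gene on the lower side, PLK2, a polo-like kinase 509 kb away, had 74.0 ± 2.57 CPM in controls and 65.4 ± 6.94 CPM under the knockout label (SD, n = 3; log2 fold change -0.18, SE 0.078, edgeR adjusted p = 0.143). On the other side DEPDC1B, 74.8 kb away, rose to 17.1 ± 0.824 CPM from 12.9 ± 1.56 (log2 fold change 0.40, SE 0.11, edgeR adjusted p = 0.0271), a call lost when any library other than control replicate 2 was left out or libraries were scaled by size alone, with adjusted p up to 0.0912. PLK2 was called lower under an alternative run, with adjusted p down to 0.0407 over the alternatives. Neither neighbour differed by as much as PDE4D. PLK2 lay in the same direction as PDE4D and DEPDC1B in the opposite direction. PART1, a long noncoding RNA that overlaps PDE4D on the opposite strand, had 1 read in all 6 libraries together.

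The 5 tested genes whose pattern over the 6 libraries was most like that of PDE4D were RP3-323P13.2, TRHDE, C1orf106, SQLE and COL20A1. Likeness was the root mean square difference in log2 CPM after centring each gene on its mean, and it ran from 0.221 for RP3-323P13.2 to 0.425 for COL20A1 among 15126 genes compared. RP3-323P13.2 fell from 9.58 ± 0.709 to 1.19 ± 0.226 CPM (SD, n = 3). TRHDE, which encodes a peptidase that degrades thyrotropin-releasing hormone, fell from 2.56 ± 0.431 to 0.135 ± 0.0762 CPM. With 2 groups of 3 libraries, this likeness mostly restates the shared difference between groups.

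PDE10A encodes a dual cAMP and cGMP enzyme best known from the striatum and lies on chromosome 6 from 165327287 to 165988078 on the minus strand. It had 7, 10 and 8 reads in the controls and 42, 29 and 39 in the knockout-labelled libraries, or 0.432, 0.658 and 0.597 CPM against 2.54, 2.06 and 2.55 CPM. All 3 knockout-labelled libraries lay above all controls, in the opposite direction to PDE4D. The log2 fold change was 2.08 (SE 0.25). Summed reads of 25 and 110 gave a ratio of 4.29, with an exact 95% counting interval from 2.76 to 6.92 that covers counting error only. In CPM before TMM scaling, which the filter reads, 1 control and all 3 knockout-labelled libraries reached its minimum of 0.665, so PDE10A was tested because of its level under the knockout label. Control replicate 2 had 88.0% of the other controls' level at the median gene of chromosome 6, yet it was the highest control for PDE10A. Leaving out each library in turn, the log2 fold change ran from 1.91 without control replicate 1 to 2.22 without control replicate 2.

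RefSeq lists 2 start windows for PDE10A, with 74.3% and 73.0% GC where the median of all windows was 58.7%. The second held 3 GC boxes, at positions -171, -162 and 37 from the start. The first window is shown because all its matches lie upstream of the start, with capitals marking its overlapping GC boxes on the opposite strand:
PDE10A start, chr6:165663242-165663441, minus strand: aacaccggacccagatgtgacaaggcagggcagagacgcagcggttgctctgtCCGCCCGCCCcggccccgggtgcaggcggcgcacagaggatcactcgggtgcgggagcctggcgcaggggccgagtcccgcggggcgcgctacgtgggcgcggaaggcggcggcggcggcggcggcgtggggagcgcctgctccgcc
Neither PDE10A window held the full element, its core, the TATA box or the CCAAT box.

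The other PDE4 genes differed far less. PDE4B, a cAMP-specific enzyme known for its part in inflammatory signalling, had 83.1, 80.9 and 86.1 CPM in controls and 95.2, 78.4 and 106 CPM in the knockout-labelled libraries. The groups overlapped, with knockout-labelled replicate 2 below every control and the other 2 above, and the log2 fold change was 0.16 (SE 0.098). It was 0.06 without knockout-labelled replicate 3 and 0.27 without replicate 2. PDE4A had 48.5, 47.3 and 49.6 CPM against 46.3, 42.2 and 48.0 CPM, also overlapping, with a log2 fold change of -0.09 (SE 0.066). PDE4C had 3.15, 2.17 and 2.84 CPM against 2.36, 2.55 and 2.62 CPM. Its 3 knockout-labelled libraries lay inside the control range, and the log2 fold change of -0.12 (SE 0.19) became 0.005 without control replicate 1.

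**Figure D2:**
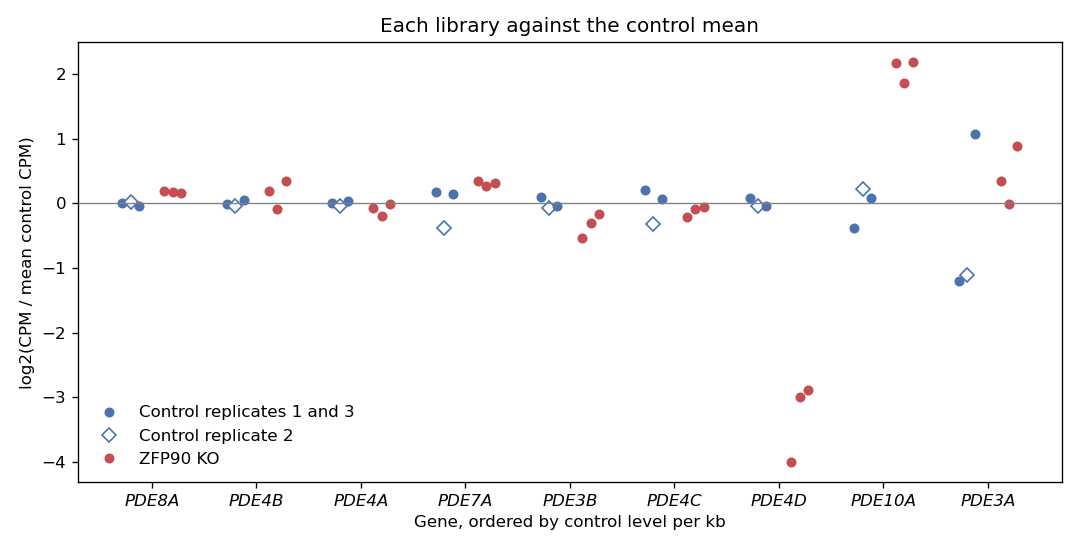
Each library's level as log2 of its CPM over the mean control CPM, for the 9 genes in order of control level per kilobase. Blue circles are control replicates 1 and 3, the open diamond is control replicate 2, and red circles are the knockout-labelled libraries. PDE4D lies near -3 to -4 and PDE10A near 2 in every knockout-labelled library, while control replicate 2 is the low point of PDE7A.

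PDE4A holds the clearest cAMP element among the windows of these genes. Of the 29 windows that RefSeq lists for PDE3A, PDE4A, PDE4B, PDE4C, PDE4D, PDE8A and PDE10A, 1 held the full element, at a PDE4A start where the core occurred 7 times. Whether this start was in use is not shown by the counts. The window is printed to 10 bases past the start because it alone of the 29 held the full element, with CRE cores and a CCAAT box in capitals:
PDE4A start, chr19:10416673-10416782, plus strand: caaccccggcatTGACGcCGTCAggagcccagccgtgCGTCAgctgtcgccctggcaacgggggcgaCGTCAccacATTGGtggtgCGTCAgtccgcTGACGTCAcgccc
PDE4A overlaps CDC37, a chaperone gene on the opposite strand, and without a stated strand setting their shared reads cannot be told apart. CDC37 rose by 0.18 on the log2 scale (SE 0.048, edgeR adjusted p = 0.0318), a call lost under 8 of the 14 alternatives run at the same threshold, with adjusted p up to 0.296.

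The remaining members are from 3 other families. PDE8A had 81.2, 82.0 and 78.1 CPM in controls and 91.8, 91.0 and 89.5 CPM under the knockout label. The groups did not overlap and each was tight, with a log2 fold change of 0.17 (SE 0.048), or 0.11 when libraries were scaled by size alone. PDE3B, the cGMP-inhibited enzyme through which insulin lowers cAMP in fat cells, had 8.33, 7.44 and 7.62 CPM against 5.38, 6.31 and 6.94 CPM. Its groups lay close without overlapping, and the log2 fold change of -0.33 (SE 0.13) was -0.24 without knockout-labelled replicate 1. PDE3A, known from heart muscle and platelets, had 6 reads in all controls and 9 in all knockout-labelled libraries and did not pass the filter. Its ratio of 1.46 had an exact 95% counting interval from 0.465 to 4.99, which covers counting error only and spans both directions.

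PDE7A lies on chromosome 8, where control replicate 2 was at 75.7% of the other controls at the median gene. It had 28.4, 19.3 and 27.9 CPM in controls and 32.0, 30.5 and 31.3 CPM in the knockout-labelled libraries. Control replicate 2 was the low value, at 19.3 CPM. The log2 fold change was 0.31 (SE 0.13) with all libraries and 0.15 (SE 0.075) without control replicate 2. MTFR1, which overlaps PDE7A on the opposite strand, had 1107, 753 and 880 raw reads in the controls and 1035, 925 and 931 in the knockout-labelled libraries. After scaling it was at 61.2 ± 10.2 and 63.0 ± 2.37 CPM (SD, n = 3; log2 fold change 0.04, SE 0.11, edgeR adjusted p = 0.822). Of the 9 members, 3 (PDE7A, PDE8A and PDE10A) lay higher and 2 (PDE3B and PDE4D) lower without overlap between groups. Among all tested genes 41.2% did not overlap, 20.9% higher and 20.3% lower, and nothing is read from the members' count, since the contrast helped choose them. The median log2 fold change of the 8 tested members was 0.036 and that of all tested genes 0.0084.

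**Figure D3:**
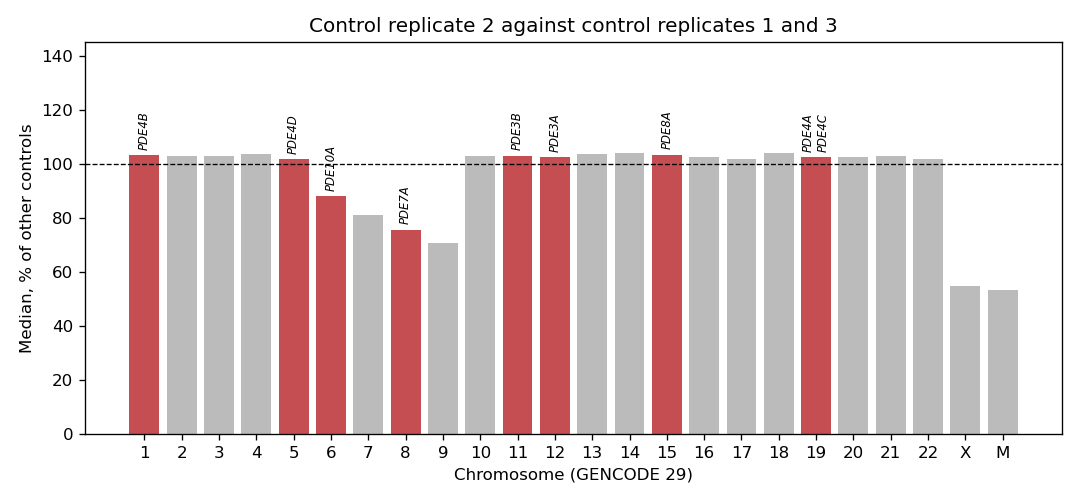
Median level of control replicate 2 as a percentage of the mean of control replicates 1 and 3, for tested genes on each chromosome and the mitochondrial genome (M). Red bars are the chromosomes that carry a member, named above the bar, and the dashed line is 100%. Chromosome 6 with PDE10A is at 88.0% and chromosome 8 with PDE7A at 75.7%, whereas chromosome 5 with PDE4D is at 102%.

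The rest of the cAMP pathway was read from 12 lists of 143 genes in all, of which 101 were tested. By edgeR at an adjusted p under 0.05, 13 of the 101 rose and 16 fell under the knockout label, or 28.7% in all. Of all 16369 tested genes 21.1% were called, 9.73% higher and 11.4% lower. The lists were made with earlier results of these data known. Nothing is therefore read from the share called in them, and their calls and adjusted p values are descriptive. The counts were 7 higher without knockout-labelled replicate 1 or 3 and ranged from 11 to 18 lower over the libraries left out in turn. All 29 called genes kept their direction under every alternative run, and 16 also stayed called wherever the threshold was 0.05. Calls that did not are named as such below. Of the 29, 7 lie on chromosome 6 or 7, where control replicate 2 was low, and all 7 stayed called without it. With that library left out, 16 pathway genes were called higher and 18 lower. Whether its low chromosomes hid calls was not tested.

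Of the other phosphodiesterases that hydrolyse cAMP, 5 of 7 were tested and 1 fell. PDE2A, a dual enzyme that cGMP stimulates, had 35.3, 38.0 and 35.8 CPM in controls and 16.0, 16.5 and 15.7 CPM in the knockout-labelled libraries. Its groups were far apart and tight, with a log2 fold change of -1.18 (SE 0.070, edgeR adjusted p = 2.05e-05). PDE8B, the paralogue of PDE8A, was at 13.6 ± 1.56 and 11.7 ± 1.01 CPM (SD, n = 3) and was not called. Of the cGMP-specific enzymes and PDE6 subunits, 4 of 8 were tested and 1 fell, PDE5A, from 10.9 ± 2.37 to 7.58 ± 0.580 CPM (edgeR adjusted p = 0.0459, and up to 0.131 over the alternatives, where the call was lost with limma-voom and without control replicate 1 or any knockout-labelled library). PDE9A, at 47.2 ± 0.243 and 45.8 ± 0.847 CPM, was not called.

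Among receptors coupled to cAMP production, 14 of 33 were tested, 1 rose and 4 fell. The number that rose was 3 without control replicate 1 and 2 without control replicate 2 or 3 or knockout-labelled replicate 2. HTR7, a serotonin receptor coupled to Gs, had 48.9, 39.5 and 50.7 CPM in controls and 110, 101 and 110 CPM in the knockout-labelled libraries, a log2 fold change of 1.21 (SE 0.092, edgeR adjusted p = 6.3e-05). DRD1, a dopamine receptor, fell by 1.01 on the log2 scale, VIPR1, the receptor for vasoactive intestinal peptide, by 0.64, and the adenosine receptor ADORA2B by 0.34 from 65.2 ± 3.75 CPM (SD, n = 3). GIPR, an incretin receptor, fell by 0.55, a call lost without knockout-labelled replicate 1 or 3. Of G protein subunits, 6 of 7 were tested, with GNAL, a stimulatory subunit, lower by 0.92. GNAI1 and GNAZ, inhibitory subunits, rose by 0.37 and 0.63, and both calls were lost without knockout-labelled replicate 1 or 3, that of GNAI1 also without replicate 2. GNAI1 is on chromosome 7, where control replicate 2 was at 81.1% of the other controls, and rose by 0.25 without it.

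Of the adenylyl cyclases, 6 of 10 were tested, 1 rose and 2 fell, and none of these 3 calls (edgeR) held in every leave-out. ADCY9 fell by 0.33 and ADCY7 by 0.24 on the log2 scale, while the soluble cyclase ADCY10 rose from 0.758 ± 0.0404 to 1.36 ± 0.193 CPM (SD, n = 3), a call lost under 11 of the 14 alternatives run at the same threshold, among them DESeq2 (adjusted p = 0.188), scaling by library size alone or by upper quartile, the looser count filter and leaving out any 1 of the 6 libraries. The call of ADCY9 was lost without control replicate 1 or knockout-labelled replicate 1, and that of ADCY7 with DESeq2 and without control replicate 1 or 3 or knockout-labelled replicate 1 or 3. ADCY6, at 49.9 ± 4.81 and 42.4 ± 4.23 CPM, was not called.

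**Figure D4:**
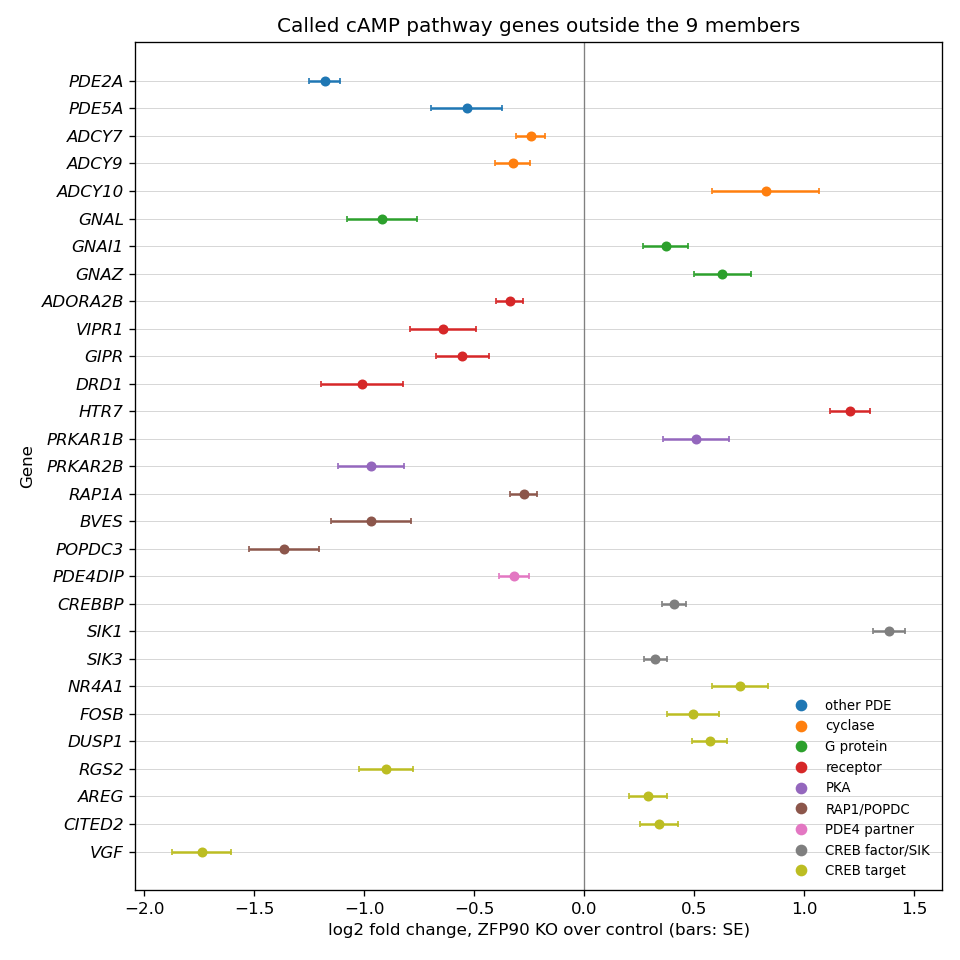
Log2 fold change of the 29 called cAMP pathway genes outside the 9 members, knockout-labelled libraries over control, with bars for the SE of the edgeR fit and colours for the gene list. Values to the right of 0 are higher under the knockout label. The widest fall is VGF at -1.74 and the widest rise SIK1 at 1.39.

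Among effectors, the regulatory subunit PRKAR2B fell by 0.97 on the log2 scale (SE 0.15, edgeR adjusted p = 0.00263). It was the 1 that fell of 9 tested protein kinase A genes, and 2 fell without control replicate 2 or knockout-labelled replicate 2. PRKAR1B rose by 0.51, a call lost without control replicate 1 or knockout-labelled replicate 1 or 3. Both are on chromosome 7, and without control replicate 2 the values were -1.06 and 0.37. The catalytic subunits PRKACA and PRKACB were not called, at 64.6 ± 1.72 and 62.4 ± 1.04 CPM for PRKACA and at 232 ± 16.5 and 269 ± 30.6 CPM for PRKACB (SD, n = 3), though PRKACB was called higher with the looser count filter (edgeR adjusted p = 0.00622). POPDC proteins bind cAMP at the membrane. POPDC3 had 12.6, 10.7 and 14.4 CPM in controls and 4.71, 5.74 and 4.19 CPM under the knockout label, a log2 fold change of -1.37 (SE 0.16, edgeR adjusted p = 6.38e-04). BVES, its family member and neighbour, fell by 0.97. Both are on chromosome 6, and without control replicate 2 the values were -1.47 and -1.08. RAP1A, the small GTPase activated by EPAC, fell by 0.27, a call lost without control replicate 1 or knockout-labelled replicate 3.

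Of the A-kinase anchoring proteins, 12 of 15 were tested and 0 were called by edgeR, DESeq2 or limma-voom, with 3 at an unadjusted p under 0.05 in edgeR. Without control replicate 2, 1 rose and 1 fell, and the same counts came with the looser count filter. AKAP12, the most abundant of them and named after its values were seen, was not called. It had 8470, 6597 and 8778 CPM in controls and 6575, 6952 and 6432 CPM in the knockout-labelled libraries. Only control replicate 2 lay within the knockout-labelled range. Both cAMP efflux pumps, ABCC4 and ABCC5, were tested and 0 were called by the same 3 tools, with 0 at an unadjusted p under 0.05. Of 12 proteins known to bind PDE4 enzymes, 1 was called (without knockout-labelled replicate 2, 1 other gene rose): PDE4DIP, which anchors PDE4D at the centrosome and Golgi, was at 57.0 ± 4.17 CPM in controls and fell to 45.7 ± 1.01 (SD, n = 3), a log2 fold change of -0.32 (SE 0.067, edgeR adjusted p = 0.0116). That call was lost without knockout-labelled replicate 1 (adjusted p = 0.0533), and reads of PDE4DIP are uncertain because the genome holds near-identical copies of parts of it.

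Among CREB factors, their coactivators and the SIK kinases that restrain CREB coactivators, 3 of 11 rose and 0 fell. SIK1, itself induced by cAMP, had 24.6, 26.3 and 28.0 CPM in controls and 73.3, 66.0 and 66.6 CPM in the knockout-labelled libraries, with groups far apart (log2 fold change 1.39, SE 0.073, edgeR adjusted p = 1.01e-05). The coactivator CREBBP rose by 0.41 and SIK3 by 0.32. Of 21 genes known as CREB targets, 14 were tested, 5 rose and 2 fell. The number that rose was 3 without control replicate 1 or any knockout-labelled library. It was 7 without control replicate 2 and 6 with the looser count filter. NR4A1, an orphan nuclear receptor, rose by 0.71, the phosphatase DUSP1 by 0.57 and FOSB by 0.50, the last a call lost without control replicate 1 or 3 or knockout-labelled replicate 1. VGF, a neuropeptide precursor, had 59.3, 68.8 and 54.8 CPM against 16.9, 22.3 and 15.8 CPM (log2 fold change -1.74, SE 0.13), and RGS2, an inhibitor of G protein signalling, fell by 0.90. AREG and CITED2, named after their values were seen, rose by 0.29 and 0.34, and both calls were lost without knockout-labelled replicate 2 or 3, that of AREG also without knockout-labelled replicate 1 or control replicate 1 and when libraries were scaled by size alone. VGF on chromosome 7 and CITED2 on chromosome 6 were at -1.65 and 0.26 without control replicate 2. The CREB targets thus moved in both directions, and many of them respond to other signals as well.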

How the data were processed

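The members and gene lists were chosen with earlier results of these data known. The authors deposited a table of raw counts by gene symbol for each library. The submitters' processing notes name TopHat2 2.0.11 and HTSeq with builds hg19 and GRCh37. The strand setting is not given in the sources used here. Summary lines held 31.7% to 32.4% of reads and were left out. Counts of all 56638 genes were fitted with edgeR 4.0.16 (R 4.3.3; quasi-likelihood test, TMM scaling, filterByExpr with minimum count 10 and total 15), which kept 16369 genes, and adjusted by Benjamini-Hochberg with calls under 0.05. At these depths 3 reads equal 0.181 to 0.224 CPM. Named pathway genes were all those called in a list, or the 5 called genes with the widest change where more were called. AREG, CITED2, PDE8B, PDE9A, ADCY6, PRKACA, PRKACB, AKAP12, ABCC4 and ABCC5 fall outside that rule and were chosen after their values were seen. Positions and lengths came from GENCODE release 29 (GRCh38), by symbol, and placed 83.9% of tested genes. Promoter sequences are RefSeq's, found for 7 of 9 members (not PDE3B and PDE7A). Same-numbered replicates had correlated deviations of 0.049, 0.14 and 0.093, each higher than for any unlike numbers (at most 0.038). The main fit did not treat them as pairs, and the block on replicate number was run beside it. Alternatives included other scalings, filters, DESeq2 1.42.0, limma-voom (limma 3.58.1), a replicate block and leaving out each library.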

Additional observations from a re-analysis of the deposited data

How the results depend on the processing

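Over all tested genes, 1593 were higher and 1861 lower, and scaling by library size alone gave 986 higher, that is 29.6% of calls against 46.1%. At an adjusted p under 0.01 the counts were 618 and 869, and over the cAMP pathway genes 6 and 9 against 13 and 16. Leaving out each library in turn, higher calls ranged from 756 to 2261 and lower calls from 1025 to 2361 over all genes, and from 7 to 16 and 11 to 18 over the pathway genes. The replicate block gave 1623 higher and 1840 lower over all genes and 13 and 17 over the pathway genes, ended the call of PDE5A (edgeR adjusted p = 0.0522), ADCY10, AREG and the epithelial marker KRT18, and called ADCY6 lower (adjusted p = 0.0318) and PRKACB higher (adjusted p = 0.0209). In the replicate check every library correlated best with its own number, a hint from the data and not from the design. Among the 8 tested members the direction held under all alternatives run, except PDE4C without control replicate 1. Dividing by the longest transcript rather than all exons put PDE4B above PDE8A in both groups and PDE4D above PDE4C in controls. Depth limits PDE3A and the low groups of PDE4D and PDE10A, each at most 14 reads in a library.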
